A study of Homo sapiens with 18 samples.

Results

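Messenger RNA of 5 genes, NPTX1, HSPB8, DENND3, TTYH3 and PELI3, was followed through all 18 libraries and 6 conditions of 3D Matrigel spheroids of MDA-MB-231 cells, an established triple-negative breast cancer (TNBC) cell line, collected after 7 days. The 5 genes are rows of tables with 21411 genes, and they were picked because Jag1KO cells given a Jagged1 plasmid and Jag1KO cells given an empty plasmid differed clearly in them. No numeric limit was set for that choice. Their values in that contrast are therefore a description and carry no test, and what knockout and siRNA did to them was tested in the other 12 libraries, although those comparisons may also have been in view when the genes were chosen.

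The conditions had 3 replicates each. Jag1WT is the parental line. Jag1KO is a mixture, in equal parts, of single-cell clones edited with Cas9 in JAG1, the gene of the Notch ligand Jagged1. Jag1KO + rescue is the same mixture carrying pcDNA3.1 with Jagged1 cDNA, and Jag1KO + ctrl carries pcDNA3.1 without an insert, both kept under G418. siCtrl and siJag1 are Jag1WT cells that received a nontargeting siRNA or siRNAs against JAG1 at 7 hours before seeding. The methods describe 1 line for each plasmid, so that an effect of the Jagged1 cDNA and any difference that arose between both lines during transfection and selection cannot be told apart. The labels call the replicates biological without naming what separated them, and the p-values below measure the spread between these cultures.

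Jagged1 on one cell binds Notch receptors on its neighbor, the receptor is cleaved, and its intracellular part joins the DNA-binding protein RBPJ to switch on genes such as HES1. The 5 genes work in other processes. NPTX1 encodes neuronal pentraxin 1, a secreted protein known from synapses, where it clusters glutamate receptors. HSPB8 encodes a small heat shock protein that works with the cochaperone BAG3 to bring misfolded proteins to autophagy. DENND3 encodes a DENN domain protein that activates the small GTPase RAB12 in membrane traffic and is a substrate of the autophagy kinase ULK1. TTYH3 encodes a membrane protein of the tweety family, described as a chloride channel, and PELI3 a Pellino ubiquitin ligase that acts on the IRAK kinases and TRAF6 below Toll-like receptors.

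By RefSeq annotation of GRCh38.p14, promoter sequence was held for 3 of the 5 genes, and the 250 bases before the start of the main transcript are shown because HSPB8 on the one side and TTYH3 and PELI3 on the other differed in opposite directions between the plasmid lines. Capitals mark the motifs searched on both strands, which did not overlap one another. These were TGGGAA (the core of the RBPJ site), CACGTG (E-box), GAANNTTC (a pair of heat shock element units) and GGGCGG (GC box). All sequences run 5′ to 3′ on the plus strand.

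HSPB8 chr12:119178681-119178930: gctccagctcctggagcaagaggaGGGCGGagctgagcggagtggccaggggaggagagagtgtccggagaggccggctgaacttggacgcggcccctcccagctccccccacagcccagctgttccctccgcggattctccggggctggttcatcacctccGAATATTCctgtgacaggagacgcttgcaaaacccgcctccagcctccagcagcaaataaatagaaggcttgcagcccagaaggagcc
TTYH3 chr7:2631736-2631985: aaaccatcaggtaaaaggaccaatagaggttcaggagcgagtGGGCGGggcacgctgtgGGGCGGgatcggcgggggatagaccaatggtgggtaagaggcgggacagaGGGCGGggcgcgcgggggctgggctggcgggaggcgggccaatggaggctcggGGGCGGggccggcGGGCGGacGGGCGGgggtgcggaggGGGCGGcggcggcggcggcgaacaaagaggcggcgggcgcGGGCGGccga
PELI3 chr11:66466655-66466904: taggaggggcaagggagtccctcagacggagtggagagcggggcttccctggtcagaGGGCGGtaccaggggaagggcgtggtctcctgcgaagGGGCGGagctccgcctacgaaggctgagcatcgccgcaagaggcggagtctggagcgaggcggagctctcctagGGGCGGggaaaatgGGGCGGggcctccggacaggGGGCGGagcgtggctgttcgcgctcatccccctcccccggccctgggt

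The HSPB8 promoter held 1 GAANNTTC, from 88 to 81 bases before the start, a motif found in 5.78% of the 35116 promoters of the table. It held 1 GC box, which 42.6% of promoters had, whereas TTYH3 had 8 GC boxes and PELI3 5. Neither TGGGAA (in 20.8% of all promoters) nor CACGTG (in 6.34%) was found in these 3 windows. The share of G and C was 63.6% for HSPB8, 75.6% for TTYH3 and 70.8% for PELI3, above the mean of 57.2% over all promoters. A match is a string of letters and not a bound site, and binding was not measured.

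In hg38 with GENCODE v44, NPTX1 lies on chromosome 17 (80466834 to 80477843, minus strand), HSPB8 on chromosome 12 (119171555 to 119224855), DENND3 on chromosome 8 (141117278 to 141195808), TTYH3 on chromosome 7 (2631961 to 2664802) and PELI3 on chromosome 11 (66466327 to 66477337), the last 4 on the plus strand. The main transcripts have 5 exons in NPTX1, 3 in HSPB8, 23 in DENND3, 14 in TTYH3 and 8 in PELI3. Annotated long noncoding RNAs overlap each of them, on the opposite strand for NPTX1, HSPB8, DENND3 (DENND3-AS1) and PELI3 (DPP3-DT). The libraries were stranded, but whether the counting used the strand is not given in the sources used here, so reads from a gene and its antisense partner cannot be told apart.

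Between 10330581 and 18327890 reads per library were counted on genes, and 3 reads, taken as the limit that a count of 0 allows, correspond to 0.162 to 0.287 CPM (the deposited read counts scaled to library size by TMM). JAG1, the targeted gene, ranged from 433 to 585 CPM in Jag1WT and from 116 to 205 CPM in Jag1KO. It ranged from 534 to 657 CPM in Jag1KO + rescue, where plasmid cDNA is counted too, and from 110 to 147 CPM in Jag1KO + ctrl. In siCtrl it ranged from 441 to 626 CPM and in siJag1 from 131 to 203 CPM, so that the groups did not overlap in any of these pairs. Of 5 markers listed as expressed in the line, VIM, CD44, AXL and CAV1 were above 1 CPM in all 18 libraries, whereas SPARC, against its listing, lay between 0 and 1.24 CPM. Of 5 markers listed as low, the estrogen receptor gene ESR1 stayed at or below 0.136 CPM, CDH1 at or below 1.16 CPM and PGR at or below 1.77 CPM. The other two were above 1 CPM in every library, ERBB2 at 32.5 to 59.98 CPM and EPCAM at 5.18 to 8.99 CPM. The fibroblast genes DCN, LUM and COL1A2 and the leukocyte genes PTPRC and CD3E were below 1 CPM in every library, while COL1A1 ranged from 2.66 to 10.0 CPM and CD68 from 88.9 to 209 CPM.

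The libraries differed in growth state. The mean log2(CPM + 1) of 10 proliferation genes ranged from 4.29 to 5.66 in Jag1KO + rescue and from 4.76 to 7.19 in Jag1KO + ctrl, with replicate 3 the lowest of the latter. It ranged from 4.33 to 5.53 in Jag1WT, from 4.35 (replicate 1) to 6.56 in Jag1KO, from 4.54 to 5.86 in siCtrl and from 4.65 to 7.00 (replicate 2) in siJag1. A gene was called where edgeR gave an FDR below 0.05 with more than a 1.5-fold change. Between the plasmid lines 1 of 12850 genes was called (0.00778%), JAG1, although 30.7% had an unadjusted p below 0.05. Without Jag1KO + ctrl replicate 3 the count was 3623, without replicate 1 it was 3, and it was 0 without any 1 of the other 4 libraries.

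In the rescue contrast the 5 genes fell into 2 groups, as the plot of levels by library shows. NPTX1 and HSPB8 were higher with the Jagged1 plasmid than in any other condition. DENND3, TTYH3 and PELI3 were lower with the Jagged1 plasmid and higher with the empty plasmid. In all 5, no library of one plasmid line overlapped with the other line, which held for 32.5% of the 12850 genes tested. Since the genes were picked on this contrast, nothing follows from that count. In these bulk RNA samples, fewer cells that express a gene and less RNA per cell cannot be told apart.

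**Figure D1:**
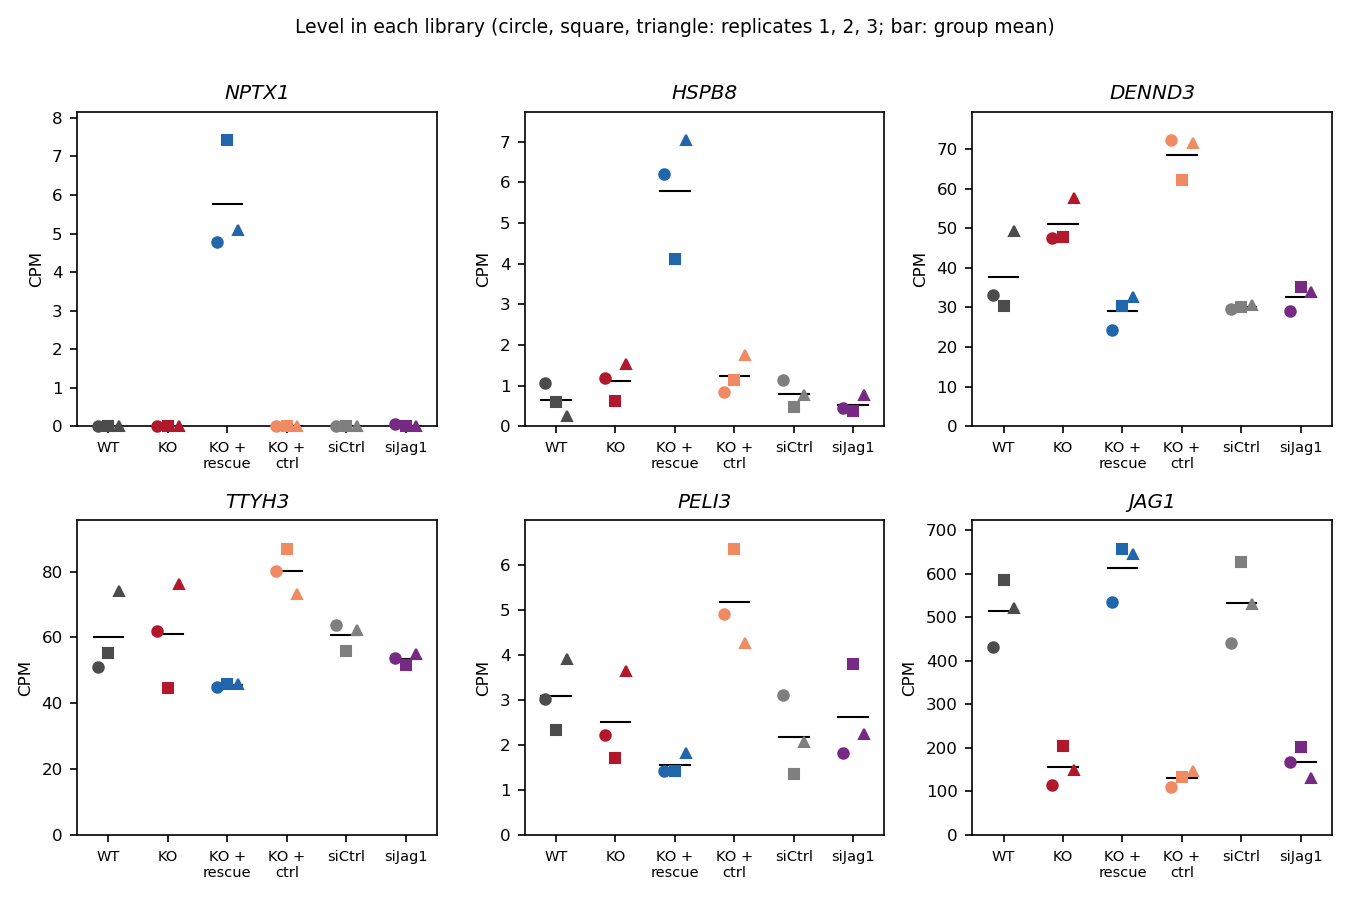
CPM of the 5 genes and of JAG1 (vertical axes) in the 3 libraries of each condition (horizontal axes), with replicates 1, 2 and 3 as circle, square and triangle and the group mean as a bar. NPTX1 was at 4.77 to 7.42 CPM in Jag1KO + rescue and at or near 0 in the other 15 libraries, whereas DENND3, TTYH3 and PELI3 had their highest means in Jag1KO + ctrl and their lowest in Jag1KO + rescue.

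NPTX1, the secreted pentraxin, was detected with the Jagged1 plasmid and hardly elsewhere. Its level was 4.77, 7.42 and 5.10 CPM in replicates 1 to 3 of Jag1KO + rescue, from 70, 105 and 87 reads. The other 15 libraries together gave 1 NPTX1 read in 222809373, in siJag1 replicate 1 (0.0567 CPM), and 14 of them had a count of 0. The 3 rescue libraries thus stood apart from all others, including the parental cells with their own JAG1. Against 3 reads per library as the limit for a count of 0, the mean of 5.76 ± 1.45 CPM (SD, n = 3) was at least 32.0-fold higher than in Jag1KO + ctrl, at least 24.2-fold higher than in Jag1KO and at least 28.3-fold higher than in Jag1WT. Leaving out any 1 library kept the difference from Jag1KO + ctrl between 4.94 and 6.26 CPM.

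NPTX1 lay below the filter of 1 CPM in the knockout and the siRNA comparison, and was not tested there. Without the filter, the fit of siCtrl against siJag1 rested on the 1 read in siJag1 (95% interval of the log2 fold change −6.01 to 2.45, edgeR FDR = 0.908). With 0 reads in Jag1WT, a loss of NPTX1 in Jag1KO could not have been detected. Among 21119 genes with a symbol, NPTX1 was the only one above 1 CPM in each rescue library with at most 1 read in the other 15 together. Widening the pattern to genes whose lowest rescue library was at least 2 times the highest other library gave 3 genes, NPTX1, HSPB8 and the noncoding RNA LINC01341. NPTX1 and HSPB8 were picked on the rescue contrast and both patterns resemble their values, so nothing follows from these counts. LINC01341 had 4.97, 1.77 and 2.05 CPM in the rescue replicates 1 to 3, from 73, 25 and 35 reads, and at most 0.354 CPM elsewhere.

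The relatives of NPTX1 did not share its pattern. On the RPKM scale, which divides CPM by the length of the gene, NPTX1 reached 1.06 ± 0.266 (SD, n = 3) in Jag1KO + rescue. NPTXR, the receptor that joins the same complexes at synapses, was lower than this in every condition, at a mean of 0.141 to 0.234 RPKM. PTX3, a long pentraxin of innate immunity, was abundant, at a mean of 172.7 RPKM in Jag1WT, 102 in Jag1KO + rescue and 88.3 in Jag1KO + ctrl. Of the listed pentraxins besides NPTX1, 2 passed the filter in Jag1WT against Jag1KO and 0 were called. Their median log2 fold change was 0.39, beside −0.01 for all genes tested. PTX4, CRP and APCS had a mean of at most 0.0318 CPM in any condition, and NPTX2 was not analysed here.

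HSPB8, the small heat shock protein, was present at low level in all conditions and higher with the Jagged1 plasmid. It had 6.20, 4.10 and 7.03 CPM in replicates 1 to 3 of Jag1KO + rescue (91, 58 and 120 reads) and 0.839, 1.14 and 1.74 CPM in Jag1KO + ctrl (14, 19 and 29 reads). The lowest rescue library was 2.35 times the highest of all 15 other libraries. The mean of 5.78 ± 1.51 CPM (SD, n = 3) was 4.66-fold that of Jag1KO + ctrl, 5.22-fold that of Jag1KO and 8.96-fold that of Jag1WT. The log2 ratio to Jag1KO + ctrl was 2.22 and stayed between 2.00 and 2.55 when any 1 library was left out.

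Without the Jagged1 plasmid HSPB8 lay near the limit of the filter. Jag1WT had 1.07, 0.601 and 0.261 CPM and Jag1KO 1.17, 0.618 and 1.53 CPM, and the groups overlapped. HSPB8 passed the filter here with 1 Jag1WT and 2 Jag1KO libraries above 1 CPM. Its log2 fold change in Jag1WT against Jag1KO was −0.75 (standard error 0.539, 95% interval −1.99 to 0.48, edgeR FDR = 0.736), with the lower mean in the parental cells. In siCtrl the level was 1.13, 0.472 and 0.761 CPM and in siJag1 0.454, 0.379 and 0.769 CPM, below the filter, from 7 to 16 reads per library. Only with all genes in the fit was HSPB8 tested there, with a log2 fold change of 0.58 (95% interval −0.48 to 1.65, edgeR FDR = 0.908). The empty plasmid left HSPB8 at 1.24 ± 0.461 CPM, beside 1.11 ± 0.459 CPM in Jag1KO.

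Of the listed partners of HSPB8, 4 were more abundant than HSPB8 itself and SYNPO2 was less. HSPB8 had 2.89 RPKM in Jag1KO + rescue, where BAG3 had 74.2 RPKM, the chaperone HSPA8 677 RPKM, the ubiquitin ligase STUB1 24.4 RPKM and the autophagy receptor SQSTM1 440.4 RPKM, whereas SYNPO2 had 0.0587 RPKM. Between the plasmid lines the best expressed relative, HSPB1, stood opposite to HSPB8, with 75.4 CPM in Jag1KO + rescue and 120.3 CPM in Jag1KO + ctrl (log2 fold change −0.68, standard error 0.206, edgeR FDR = 0.110). In Jag1KO it was at 75.6 CPM, near its rescue level. Its log2 fold change had the same sign as that of HSPB8 for the knockout (−0.41) and the siRNA (0.21). Of the listed small heat shock proteins and partners besides HSPB8, 5 were tested in each comparison and 0 were called. Their median log2 fold change in the rescue contrast was 0.14, beside 0.00 for all genes. BAG3 was at 162 CPM in Jag1WT, 134 in Jag1KO, 167 in siCtrl and 133 in siJag1, a log2 fold change of 0.27 (FDR = 0.525) for the knockout and 0.34 (FDR = 0.974) for the siRNA by edgeR. HSPB6 and CRYAB stayed at a mean of at most 0.340 CPM, and HSPB2, HSPB3 and CRYAA were not analysed here.

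DENND3, the activator of RAB12, differed between the plasmid lines in both directions from the cells they were made from. It had 24.3, 30.3 and 32.7 CPM in replicates 1 to 3 of Jag1KO + rescue, 72.2, 62.1 and 71.4 CPM in Jag1KO + ctrl and 47.4, 47.7 and 57.7 CPM in Jag1KO. Every library with the empty plasmid lay above every Jag1KO library, and every library with the Jagged1 plasmid lay below. The share of all genes with this order was not counted. The rescue mean was 0.425 times that of Jag1KO + ctrl and 0.572 times that of Jag1KO, and the Jag1KO + ctrl mean was 1.35-fold that of Jag1KO. With any 1 library left out the log2 ratio between the plasmid lines, −1.24, stayed between −1.33 and −1.12. Both comparisons with Jag1KO share libraries with the contrast that chose the gene.

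The other comparisons of DENND3 were independent of the plasmid lines. Jag1WT had 33.3, 30.3 and 49.3 CPM, so that its replicate 3 reached into the range of Jag1KO while the other two lay below it. The log2 fold change in Jag1WT against Jag1KO was −0.44 (standard error 0.197, 95% interval −0.89 to 0.01, edgeR FDR = 0.579), in the direction of a higher level in the knockout, and −0.31 to −0.69 with any 1 library left out. With the replicate number as a block it was −0.47 (edgeR FDR = 0.0566), so that the FDR depended on whether the libraries were treated as paired. In siCtrl the level was 29.5, 30.1 and 30.7 CPM and in siJag1 29.1, 35.0 and 33.9 CPM, overlapping groups with a log2 fold change of −0.11 (95% interval −0.39 to 0.17, edgeR FDR = 0.974). The effect of the knockout minus that of the siRNA was −0.33 (95% interval −0.86 to 0.21, edgeR FDR = 0.999). The means of Jag1KO + rescue, siCtrl, siJag1 and Jag1WT, from 29.1 to 37.6 CPM, followed each other with overlapping libraries.

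Among DENN domain proteins and the regulators of RAB12, DENND3 was of middle abundance. It had a mean of 3.70 to 8.71 RPKM over the conditions, beside 17.2 to 20.7 RPKM for DENND5A and 10.2 to 11.4 RPKM for DENND4B. Its substrate RAB12 ran from 18.4 RPKM in Jag1WT to 23.8 RPKM in Jag1KO + rescue, and ULK1 from 6.60 RPKM in Jag1KO + rescue to 10.4 RPKM in Jag1WT. Of the 17 listed genes besides DENND3, 16 were tested in the rescue contrast and 0 were called, with a median log2 fold change of −0.02 beside 0.00 for all genes. Of these 16, DENND1C, DENND2B and DENND6B had an unadjusted edgeR p below 0.05, all lower with the Jagged1 plasmid, as 16.3% of all genes were. DENND1C, another activator of RAB proteins, had 0.851 CPM in Jag1KO + rescue and 2.78 CPM in Jag1KO + ctrl (log2 fold change −1.69, standard error 0.382, edgeR FDR = 0.104). Others had higher means with it, such as DENND2D (0.48) and DENND2C (0.40). In Jag1WT against Jag1KO 16 of the 17 were tested and in siCtrl against siJag1 15, and 0 were called in either.

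TTYH3, the tweety family membrane protein, differed least between the plasmid lines. It had 44.8, 45.9 and 45.9 CPM in replicates 1 to 3 of Jag1KO + rescue and 80.0, 86.9 and 73.3 CPM in Jag1KO + ctrl, so that the rescue libraries were close to each other and below all 3 with the empty plasmid. The rescue mean of 45.5 ± 0.606 CPM was 0.569 times that of 80.1 ± 6.80 CPM (SD, n = 3) in Jag1KO + ctrl. The log2 ratio of −0.81 stayed between −0.87 and −0.75 with any 1 library left out. Against the cells of origin neither line stood apart, since Jag1KO had 61.9, 44.7 and 76.1 CPM, a range that covered the rescue libraries and reached above the lowest library with the empty plasmid.

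TTYH3 averaged 60.9 ± 15.7 CPM in the knockout cells and 60.1 ± 12.3 CPM in the parental cells (SD, n = 3). Jag1WT had 50.9, 55.2 and 74.1 CPM, overlapping with Jag1KO, and the log2 fold change in Jag1WT against Jag1KO was −0.02 (standard error 0.217, 95% interval −0.52 to 0.47, edgeR FDR = 0.983), running from −0.21 to 0.17 with any 1 library left out. In siCtrl the level was 63.6, 55.9 and 62.2 CPM and in siJag1 53.6, 51.5 and 55.1 CPM, so that all siCtrl libraries lay above all siJag1 libraries, as in 5.15% of the genes tested there. The log2 fold change was 0.19 (standard error 0.102, 95% interval −0.05 to 0.43, edgeR FDR = 0.974), and TTYH3 was not called. The difference between the effects of knockout and siRNA was −0.21 (95% interval −0.77 to 0.35, edgeR FDR = 0.999). The mean of TTYH3 was thus lower in the siRNA group with less JAG1 (53.4 against 60.6 CPM) and in the plasmid line with more of it. Of its family, TTYH2 had a mean of at most 0.115 RPKM beside 9.01 to 15.8 RPKM for TTYH3, and TTYH1 was not analysed here.

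PELI3, the Pellino ubiquitin ligase, was measured from few reads and had the largest ratio between plasmid lines among the 3 genes lower with Jagged1. It had 1.43, 1.41 and 1.82 CPM in replicates 1 to 3 of Jag1KO + rescue (20 to 31 reads) and 4.92, 6.35 and 4.27 CPM in Jag1KO + ctrl (71 to 106 reads). All libraries with the empty plasmid lay above all other 15, and the rescue libraries lay at the low end of the other groups' range. The rescue mean of 1.55 ± 0.228 CPM was 0.300 times that of 5.18 ± 1.06 CPM in Jag1KO + ctrl, a log2 ratio of −1.74 (−1.86 to −1.56 with any 1 library left out). Jag1KO had 2.22, 1.70 and 3.63 CPM, which overlapped with the rescue libraries, and the Jag1KO + ctrl mean was 2.06-fold that of Jag1KO.

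Neither knockout nor siRNA gave a call for PELI3. Jag1WT had 3.03, 2.33 and 3.91 CPM, and the log2 fold change in Jag1WT against Jag1KO was 0.31 (standard error 0.347, 95% interval −0.48 to 1.11, edgeR FDR = 0.845). In siCtrl the level was 3.11, 1.35 and 2.06 CPM and in siJag1 1.81, 3.79 and 2.24 CPM. The groups overlapped, with a log2 fold change of −0.27 (standard error 0.402, 95% interval −1.20 to 0.66, edgeR FDR = 0.977) that became 0.12 without siJag1 replicate 2. The difference between both effects was 0.59 (95% interval −0.63 to 1.80, edgeR FDR = 0.999).

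The other Pellino genes were more abundant per length. PELI3 had a mean of 0.514 to 1.71 RPKM, PELI1 1.69 to 3.47 RPKM and PELI2 2.16 to 3.94 RPKM. PELI1 was at 10.5 CPM in Jag1WT and 16.6 CPM in Jag1KO (log2 fold change −0.67, standard error 0.151, edgeR FDR = 0.136), and at 20.1 CPM in Jag1KO + rescue and 14.6 CPM in Jag1KO + ctrl, so that its means stood in the opposite order to those of PELI3 in both pairs. The kinase IRAK1 was at 21.7 to 28.5 RPKM and the ligase TRAF6 at 2.98 to 3.87 RPKM. All 10 listed Pellino and IRAK signaling genes besides PELI3 were tested in each comparison and 0 were called. Their median log2 fold change was 0.27 in the rescue contrast, beside 0.00 for all genes, and 0.22 in Jag1WT against Jag1KO.

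**Figure D2:**
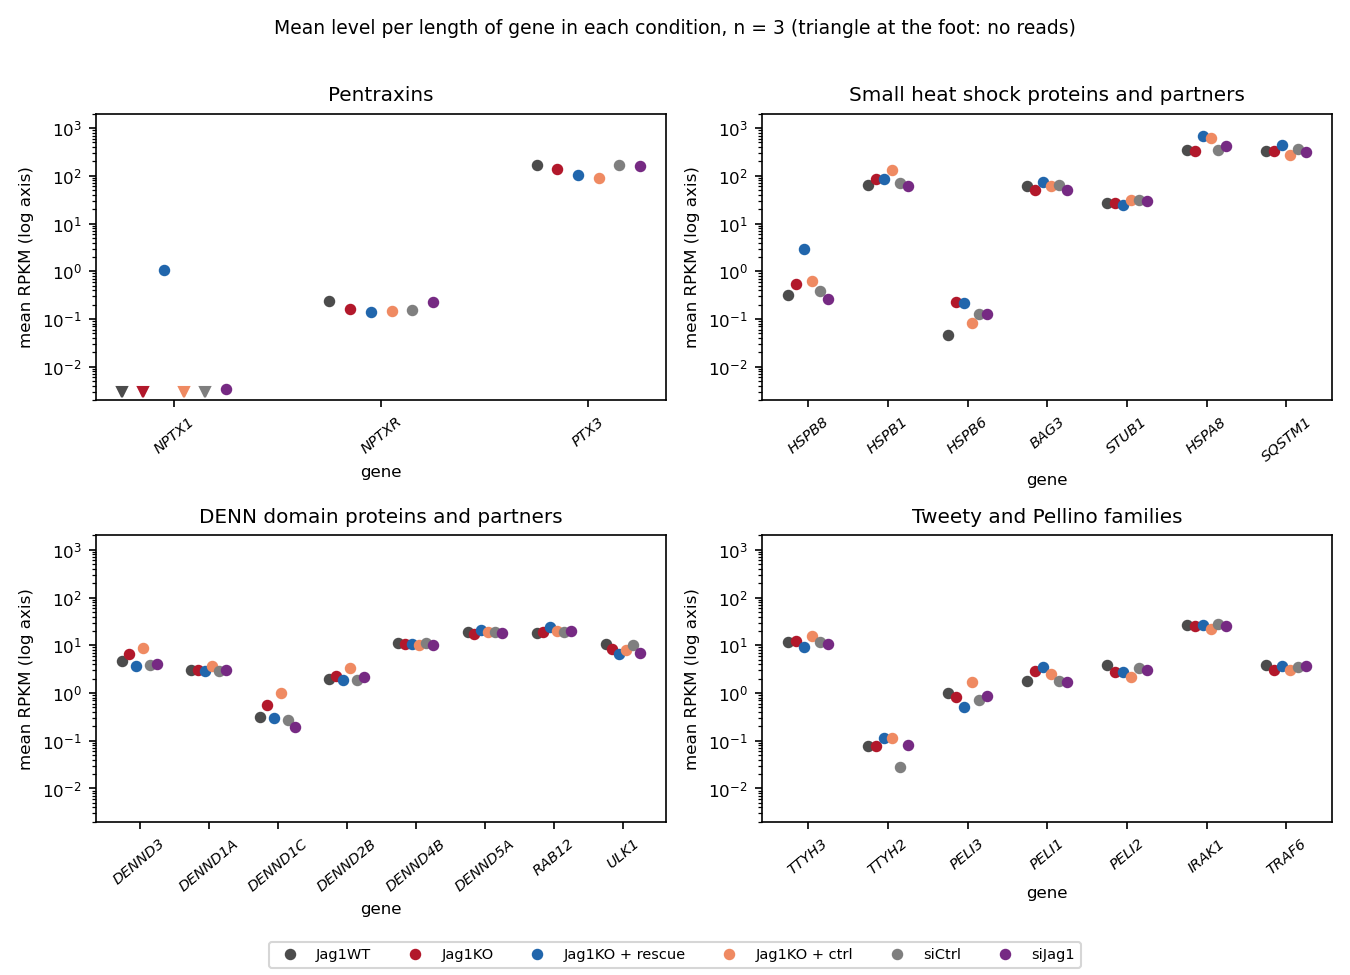
Mean RPKM (vertical log axes) of the 5 genes and of relatives and partners in each of the 6 conditions (colors), 3 libraries per mean, with a triangle at the foot of the axis for groups without a read. NPTX1 is above the foot at 1.06 RPKM in Jag1KO + rescue, HSPB8 lies far below BAG3 and HSPA8, and DENND3, TTYH3 and PELI3 are lowest in Jag1KO + rescue.

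Taking the tests of all 5 genes, 4 of them passed the filter in Jag1WT against Jag1KO and 0 were called, beside 0.707% of the 12879 genes tested (91 genes). That count ran from 12 without Jag1WT replicate 3 to 840 without Jag1KO replicate 1 and moved by over 1.5 times in each of the 6 fits that left out a library. In siCtrl against siJag1 3 of the 5 passed and 0 were called, beside 0.0157% of 12774 genes, namely LTBP3 and COL6A3, which were named after their values were seen. There the count was 12 without siJag1 replicate 2, 1 without siJag1 replicate 1 and 0 without any 1 of the other libraries. These libraries were taken as paired by replicate number, and with that number as a block 4 genes were called, none of them among the 5. Without the block JAG1, the target of the siRNA, was itself not called (log2 fold change 1.68, standard error 0.191, edgeR FDR = 0.103). Neither was HES1 (log2 fold change 1.60, standard error 0.210, edgeR FDR = 0.116), so a missing call in this comparison does not show a lack of change. In the test of the knockout effect against the siRNA effect 3 passed and 0 were called, beside 0.11% of 12765 genes (14 genes, and between 0 and 15 with 1 library left out, where it stayed within 1.5 times only without siJag1 replicate 2). With so few calls in the background, 0 of 3 or 4 genes says little. The intervals above come from fits without a block and give the sizes of change that those fits leave possible.

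**Figure D3:**
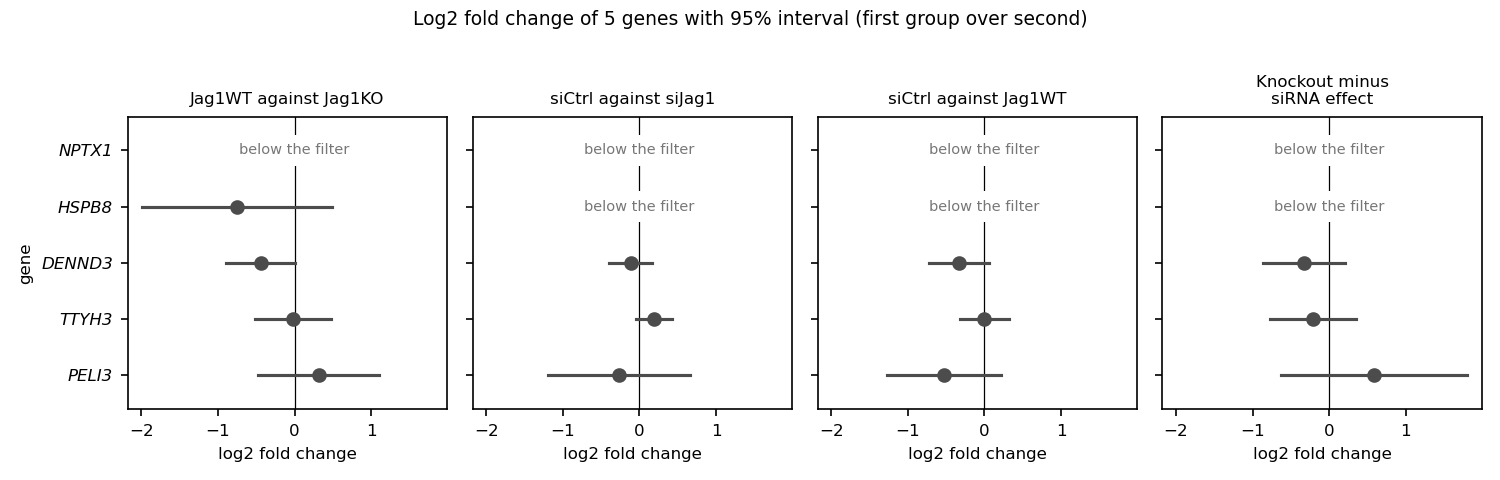
Log2 fold change (horizontal axes) of each gene (rows) in 4 comparisons that used no plasmid library, as points with 95% intervals from edgeR. The fits shown had no replicate block. Every interval in them includes 0, from the narrowest, TTYH3 in siCtrl against siJag1 (−0.05 to 0.43), to that of HSPB8 in Jag1WT against Jag1KO (−1.99 to 0.48). Genes below the filter have no point.

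As a control, siCtrl was compared with Jag1WT, neither of which had its JAG1 targeted. DENND3 was lower in siCtrl by a log2 fold change of −0.33 (95% interval −0.72 to 0.06), PELI3 by −0.53 (−1.26 to 0.21) and TTYH3 was at 0.00 (−0.32 to 0.32), each with an edgeR FDR of 1.00. Those of DENND3 and PELI3 were larger in size than their values for the siRNA. By edgeR, DESeq2 and limma 0 of 12797 genes (0%) were called, and by edgeR 178 genes (1.39%) had an unadjusted p below 0.05. With the replicate number as a block, since these libraries were taken as paired by it, edgeR called 1 gene and none of the 5. In that fit DENND3 was at −0.31 (edgeR unadjusted p = 0.0098, FDR = 0.352) and PELI3 at −0.52 (edgeR unadjusted p = 0.0425, FDR = 0.491). The fit without a block thus gave larger p-values for both than the paired one.

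Of the listed Notch targets, HES1 was taken as a reference for the same libraries, and the listed targets did not all follow JAG1. HES1 was at 15.6 CPM in Jag1WT and 1.90 CPM in Jag1KO (log2 fold change 2.99, standard error 0.513, edgeR FDR = 0.0505), at 12.4 CPM in Jag1KO + rescue and 0.881 CPM in Jag1KO + ctrl, and at 13.3 CPM in siCtrl and 4.42 CPM in siJag1. Its means therefore followed JAG1 in all 3 pairs. The means of DENND3 stood on the opposite side in the knockout and siRNA pairs, where its groups overlapped and it was not called. They did so in the plasmid pair too, but the gene was picked for its difference there. The means of the other 4 genes followed JAG1 in some pairs and not in others or could not be compared. HEY1, another target, was at 8.25 CPM in Jag1WT, 7.51 CPM in Jag1KO, 7.97 CPM in Jag1KO + rescue and 5.79 CPM in Jag1KO + ctrl. The means of HES4 followed JAG1 in all 3 pairs. HEYL, from few reads, went the other way, at 0.254 CPM in Jag1WT and 0.494 in Jag1KO, and 0.233 in Jag1KO + rescue and 0.480 in Jag1KO + ctrl. NRARP was at 0.634 CPM in Jag1WT and 0.882 in Jag1KO. Of the 9 listed targets 3 were tested for the knockout and the siRNA and 4 in the rescue contrast, and 0 were called.

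The proliferation genes were at a lower range in Jag1KO + rescue (4.29 to 5.66, median 4.40) than in Jag1KO + ctrl (4.76 to 7.19, median 6.64), and the part of growth state in the difference was not tested. The plot against proliferation genes gives what the libraries show. Jag1KO + rescue replicate 2 had a higher mean of these genes (5.66) than Jag1KO + ctrl replicate 3 (4.76), so that the lines overlapped in this measure. Since the genes were picked on non-overlapping plasmid lines, their order in such a pair is fixed by that choice. Over the 12 libraries without a plasmid, the Pearson correlation of log2(CPM + 1) with that mean was −0.11 for HSPB8, 0.24 for DENND3, −0.22 for TTYH3 and 0.04 for PELI3, given as a description, since the libraries share groups. Over all 18 libraries, which include those used to pick the genes, it was −0.28, 0.43, 0.30 and 0.41 in the same order.

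**Figure D4:**
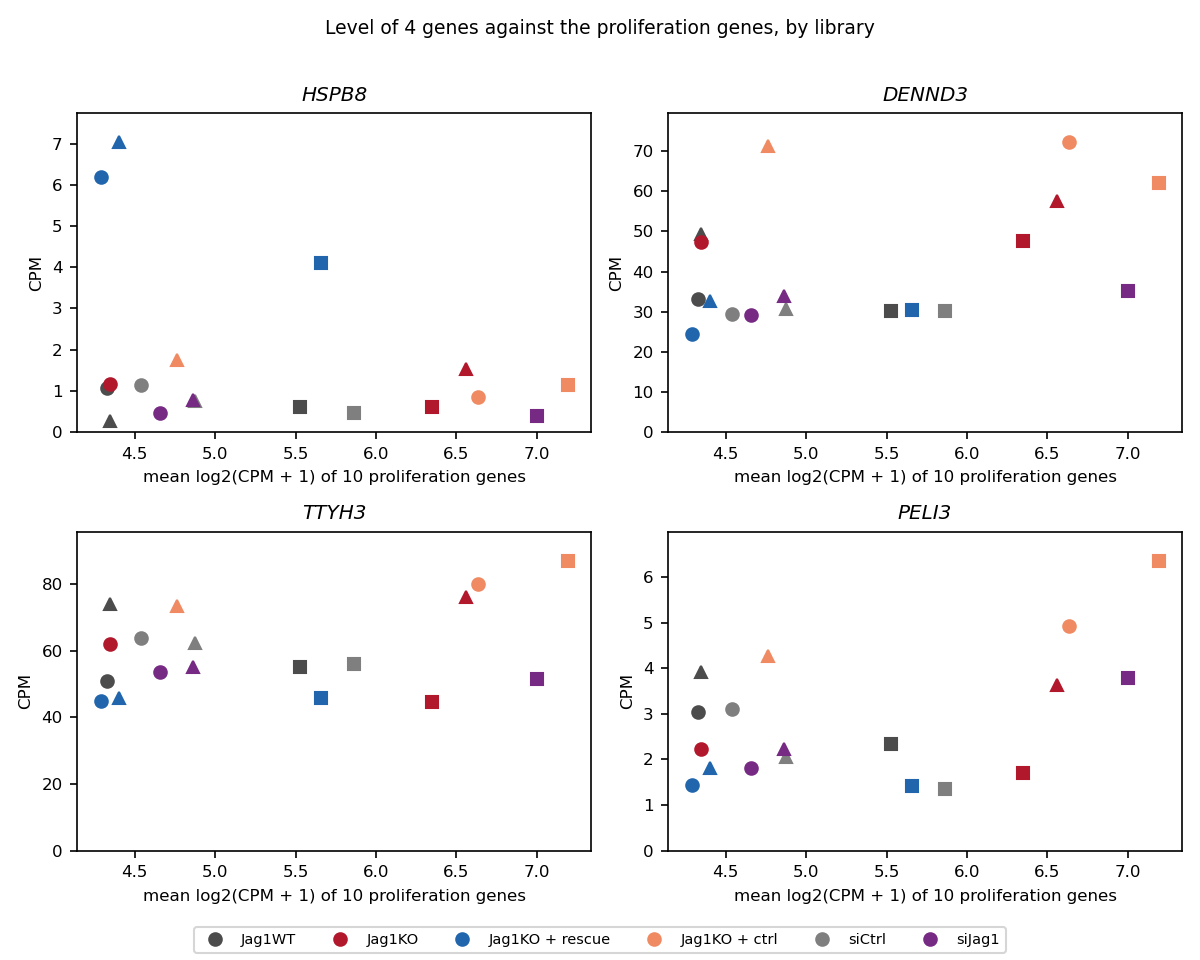
CPM of 4 genes (vertical axes) against the mean log2(CPM + 1) of 10 proliferation genes (horizontal axes) in 18 libraries, colored by condition, with replicates 1, 2 and 3 as circle, square and triangle. Jag1KO + ctrl replicate 3 (triangle at 4.76) lies to the left of Jag1KO + rescue replicate 2 (square at 5.66), so that the plasmid lines overlap on the horizontal axis.

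Correlations between the 5 genes over all libraries include those used to pick them. Over 18 libraries Pearson's r of log2(CPM + 1) was 0.89 between NPTX1 and HSPB8, 0.82 between TTYH3 and PELI3, and 0.75 between DENND3 and each of TTYH3 and PELI3. Over the 12 libraries without a plasmid it was 0.51, 0.41 and 0.37 for the last 3 pairs, and that of HSPB8 was 0.26 with DENND3, 0.29 with TTYH3 and 0.15 with PELI3, where it had been −0.21, −0.37 and −0.32 over all 18. Between NPTX1 and HSPB8 it could not be given there. The genes most like each one among 13323 genes above 1 CPM in at least 3 libraries were LINC01341 (0.92), PRKCI (0.92) and PPP4R2 (0.91) for NPTX1 and PPP4R2 (0.93), MON1B (0.92) and TBC1D23 (0.91) for HSPB8. For DENND3 they were LAIR2 (0.94), VSIG1 (0.93) and DNAH5 (0.92), for TTYH3 HDAC5 (0.93), ZNF358 (0.91) and SLC27A1 (0.91), and for PELI3 NARF (0.91), LGR4 (0.90) and AOPEP (0.90). These r were taken over all 18 libraries, so they repeat the contrast on which the 5 genes were picked. With NPTX1 at 0 in 14 of the 15 libraries outside Jag1KO + rescue, its r reflects little besides a high level in rescue. Shared regulation does not follow from them.

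PPP4R2, a regulatory subunit of protein phosphatase 4, was at 67.5 ± 3.09 CPM in Jag1KO + rescue and at a mean of 44.5 to 49.9 CPM in the other conditions. PRKCI, an atypical protein kinase C, was at 95.7 ± 2.67 CPM in Jag1KO + rescue and 60.1 ± 6.55 CPM in Jag1KO + ctrl. LAIR2, the nearest to DENND3, was at 10.6 ± 3.30 CPM in Jag1KO + ctrl, 6.43 ± 1.18 CPM in Jag1KO and 2.25 ± 1.19 CPM in Jag1KO + rescue. HDAC5, a class II histone deacetylase and the nearest to TTYH3, was at 60.1 ± 6.53 CPM in Jag1KO + ctrl and 32.3 ± 5.16 CPM in Jag1KO + rescue. Of all 21119 genes with a symbol, 595 had every rescue library above every other library with at least 1 CPM, NPTX1 and HSPB8 among them. A further count gave 150 with every Jag1KO + ctrl library above every other, DENND3 and PELI3 among them. The 4 named genes were picked on the plasmid lines, so nothing follows from their place in these counts.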

How the data were processed

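Stranded mRNA libraries were made from 18 cultures, 3 in each of 6 conditions. The authors aligned reads to hg38 and deposited counts of uniquely mapped reads per gene; the submitters' processing notes name featureCounts, R 3.6.1, edgeR 3.28.0 and MultiQC 1.5, and the aligner is not given in the sources used here. The deposited CPM, a signal scaled by the authors, are these counts over the TMM-normalized library size, and the deposited RPKM are the CPM over 1 length per gene; lengths taken from them gave the RPKM of siJag1. Of the RPKM columns, 3 matched no label and were not used. Rows without a symbol (292 of 21411, at most 0.0442% of the counts) were left out of tests.

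The 5 genes and all gene lists were chosen with earlier results of these data known. Counts were tested with edgeR 4.0.16 (R 4.3.3; TMM, robust quasi-likelihood test, Benjamini-Hochberg FDR over all genes tested) on the libraries of each comparison, with genes above 1 deposited CPM in at least 0.5 of them; calls needed an FDR below 0.05 and a fold change above 1.5. Scripts were checked on simulated data. Alternatives were DESeq2 1.42.0, limma 3.58.1 on log2(CPM + 1) and log2(CPM + 0.25), no filter, all 18 libraries in 1 fit, the replicate number as a block, and leaving out each library. Same-numbered libraries deviated together in siCtrl and siJag1 (correlations over genes of 0.544, 0.523 and 0.264) and in siCtrl and Jag1WT (0.597, 0.715 and 0.213), which was taken as pairing, but not in Jag1WT and Jag1KO (0.634, 0.670 and −0.01). The authors' own test (ROTS) was not run. Named relatives are the 5 genes' families and partners, and 3 nearest genes each by Pearson's r over 18 libraries. Intervals and the limit of 3 reads cover counting error or the spread between cultures only. Within groups no 2 libraries were copies (pairs across groups were not compared), since the chi-square of the counts of 2 replicates over its degrees of freedom was at least 7.37.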

Additional observations from a re-analysis of the deposited data

Results flagged for a closer look

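DENND3 lay on opposite sides of Jag1KO with the 2 plasmids. The log2 ratio of mean CPM to Jag1KO was −0.81 for Jag1KO + rescue and 0.43 for Jag1KO + ctrl, with every library of each line on its own side of all Jag1KO libraries. The difference between these ratios was −1.24. It was not tested, because both lines belong to the contrast on which the gene was picked. How many of all genes lay on both sides of Jag1KO in this way was not counted. The plasmid lines alone did not overlap in 32.5% of the 12850 genes tested. A stricter pattern, which DENND3 did not meet, held for 4 genes with a symbol (DCAKD, LRP10, TMEM161A and WIPI2, found after their values were seen). They had every Jag1KO + ctrl library above and every Jag1KO + rescue library below all of the other libraries. Their number does not tell how common the pattern of DENND3 is.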

How the results depend on the processing

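In the 4 comparisons without a plasmid, 0 of the 5 genes were called in each of the 54 fits with another setting. Fits with the filter tested fewer than 5, since NPTX1 lay below it, and in the first fits HSPB8 passed only in Jag1WT against Jag1KO. The fits with all 18 libraries also held the plasmid lines. Of 171 log2 fold changes of single genes, 163 kept their sign. The exceptions came from leaving out 1 library. TTYH3 ran from −0.21 to 0.17 in Jag1WT against Jag1KO and from −0.11 to 0.19 in siCtrl against Jag1WT, and PELI3 from −0.63 to 0.12 in siCtrl against siJag1. The lowest FDR of the 5 genes under any setting was 0.0566, for DENND3 in Jag1WT against Jag1KO with the replicate block. There the libraries of replicates 1 and 2 deviated together and those of replicate 3 did not. The ratios between plasmid lines (for NPTX1 the difference) kept their direction with any 1 library left out, which follows from the lines not overlapping. All 15 nearest genes were the same with a pseudocount of 0.25, over the same libraries, the plasmid lines among them.

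Counts of all genes called moved more, and the cause was not tested. For Jag1WT against Jag1KO (91) they were 235 with DESeq2, 171 without a filter, 148 with all 18 libraries in the fit and 316 with the replicate block, and 12 to 840 with 1 library left out. For siCtrl against siJag1 (2) they were 24, 8, 7 and 4 in the same order, 0 with either limma fit, and 0 to 12 with 1 library left out. For the knockout against the siRNA effect (14) DESeq2 gave 33 and the replicate block 23, with 0 to 15 when 1 library was left out. For the rescue contrast (1) the counts were 1583 with DESeq2, 33 without a filter, 2135 with all 18 libraries, 4 with the replicate block, 2 with either limma fit, and 0 to 3623 with 1 library left out. For siCtrl against Jag1WT (0) the replicate block gave 1. Depth limits NPTX1, HSPB8 and PELI3 most, with at most 120 reads per library.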
